A study of Mus musculus with 14 samples.

Results

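Collagen transcripts were followed in 14 arrays of whole uterus taken at day 3.5 of gestation, before implantation. The members were all probe sets whose only gene symbol in the platform annotation was Col, a number, the letter a and a number. These were 82 of 45037 non-control probe sets, and they stood for 42 genes. Of these, 44 probe sets for 26 genes had a mean log2 signal at or above the median of all probe sets, a signal of 134, and could be tested among 22519 probe sets. The other 16 genes were below that level: the fibrillar Col2a1, Col11a2 and Col24a1, the basement-membrane gene Col4a3, the beaded-filament gene Col6a5, the short-chain genes Col8a1 and Col10a1, the fibril-associated Col9a1, Col9a2, Col9a3, Col19a1, Col20a1 and Col22a1, and the transmembrane Col13a1, Col17a1 and Col25a1.

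The females were C57BL/6 mice, either wild type or Folr4-/-, that is, with both copies of Folr4 mutated, the gene now named Izumo1r. Each received intraperitoneal injections 10 and 3 days ahead of mating, of either saline or 12.5 mg/kg folinic acid, which is a reduced form of folate. Arrays numbered 4 for saline and 3 for folinic acid in wild type, and 3 for saline and 4 for folinic acid in mutants, and all animals ate the same chow. The age of the females and how the mutation was made are not given in the sources used here. The labels call the replicates biological, but a title number is shared by wild-type saline replicates 2 and 3, and another by wild-type folinic acid replicates 1 and 2, and what these numbers mean is not stated. The p-values therefore measure the spread between these arrays. The crossed design asks how genotype and preconception folate each bear on the uterus, and whether the effect of one depends on the other.

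Collagens are triple helices of alpha chains. The fibrillar types I, III and V form the tensile fibrils of the uterine stroma and muscle layer, and in the mouse uterus this matrix is remodelled as stromal cells become decidual cells around an implanting embryo. Type IV chains build the network of basement membranes under epithelium and endothelium and around muscle cells, type VI forms beaded filaments near cell surfaces, and types XV and XVIII sit at basement membranes and carry an endostatin domain. Procollagen chains are hydroxylated and folded in the endoplasmic reticulum with the chaperone Hsp47, encoded by Serpinh1, then cleaved and crosslinked outside the cell.

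The start regions of 4 genes are shown because the signals described next turn on them: Col3a1 and Col1a2 are the fibrillar genes whose groups separated, and Col4a5 and Col4a6 are a pair on opposite strands whose signals varied together. They are the 250 bases before the start of each gene in RefSeq on GRCm38.p6, read 5′ to 3′ on the gene's strand. Capitals mark 3 motifs searched on both strands: the CCAAT box, with ATTGG as its reverse, the motif TATAAA, with TTTATA as its reverse, and the motif GGGCGG, with CCGCCC as its reverse. These motifs do not overlap in the windows shown.
Col3a1, chr1:45311288-45311537, plus strand: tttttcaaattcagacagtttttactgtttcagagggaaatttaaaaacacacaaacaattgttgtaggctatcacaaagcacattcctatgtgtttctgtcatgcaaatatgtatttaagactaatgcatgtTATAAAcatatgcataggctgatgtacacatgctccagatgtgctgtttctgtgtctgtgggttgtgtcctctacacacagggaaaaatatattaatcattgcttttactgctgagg
Col1a2, chr6:4505368-4505617, plus strand: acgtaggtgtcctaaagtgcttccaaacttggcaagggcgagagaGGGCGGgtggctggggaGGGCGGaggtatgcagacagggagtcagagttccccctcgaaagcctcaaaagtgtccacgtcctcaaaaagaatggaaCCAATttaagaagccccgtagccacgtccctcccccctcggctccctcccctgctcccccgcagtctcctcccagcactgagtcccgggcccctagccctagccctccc
Col4a5, chrX:141475169-141475418, plus strand: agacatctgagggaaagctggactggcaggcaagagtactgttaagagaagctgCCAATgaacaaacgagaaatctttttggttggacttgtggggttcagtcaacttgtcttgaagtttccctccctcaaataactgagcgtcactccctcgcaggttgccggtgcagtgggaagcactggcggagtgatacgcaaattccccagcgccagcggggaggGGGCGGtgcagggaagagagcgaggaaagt
Col4a6, chrX:141474077-141474326, minus strand: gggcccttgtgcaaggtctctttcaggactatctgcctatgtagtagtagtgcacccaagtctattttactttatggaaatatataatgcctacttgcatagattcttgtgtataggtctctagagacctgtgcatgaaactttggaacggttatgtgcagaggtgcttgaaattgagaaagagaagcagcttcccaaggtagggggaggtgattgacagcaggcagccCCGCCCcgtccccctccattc
In the Col3a1 window TATAAA begins 117 bases before the start, and neither other motif was found. The Col1a2 window holds CCAAT at 109 bases and GGGCGG at 205 and 188 bases before its start. The windows of Col4a5 and Col4a6 each hold GGGCGG, at 30 bases and, on the reverse strand, at 21 bases before the start. Col4a5 also holds CCAAT at 196 bases, and the starts are 1343 bases apart. Col4a1 and Col4a2 are also on opposite strands, with starts only 21 bases apart on chromosome 8. Unlike Col4a5 and Col4a6, their first bases overlap, as each gene runs past the start of the other. The 22 bases from one start to the other are written on the Col4a2 strand. They lie after both starts, and so outside the windows searched.
Col4a2 and Col4a1, chr8:11312805-11312826, plus strand: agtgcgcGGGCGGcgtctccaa
RefSeq start regions were matched for 33 of the 42 genes and 21 of the 26 measured ones. Some genes had several starts, so the measured genes had 23 windows. GGGCGG was present in 69.6% of these 23 windows and in 32.7% of all 32851 start regions of the same length. CCAAT was present in 43.5% and 33.8%, and TATAAA in 4.35% and 12.4%, the single measured collagen window with TATAAA being that of Col3a1. The 32851 regions are of genes measured here or not, while the 23 windows are of measured genes only, so these shares are of unlike sets. Over the 36 windows of all 33 matched collagen genes, measured or not, GGGCGG was present in 21, CCAAT in 13 and TATAAA in 5. A match of letters is a description of the window and not evidence of a factor at work.

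Values are linear signals that the authors scaled to the same trimmed mean on every array, and log2 differences come from a limma fit across all 22519 probe sets with Benjamini-Hochberg adjustment. A gene is represented by its probe set of highest mean signal, and levels of different genes are not compared. Array medians ran from 130.0 to 157, and each array's Spearman correlation with the rest, averaged over pairs and taken on all non-control probe sets, from 0.932 to 0.953. Folr4 itself lay at percentile 23.0 of mean signal, below the level tested, and cannot check the genotype labels here. Erdr1 separated the genotypes, with 141 to 570 in the 7 wild-type arrays against 5553 to 11928 in the 7 mutant arrays. Wild-type saline replicate 3 stood apart, with the highest actin 3-prime to 5-prime ratio (3.64, all arrays 1.54 to 3.64), the highest Gapdh ratio (2.48, all arrays 1.14 to 2.48) and the lowest mean correlation. Defining markers of stroma (Vim, Dcn, Pdgfra) and smooth muscle (Acta2, Myh11, Des) were above the level tested, as were 11 of 11 markers in each list. Of 7 matched cartilage and bone markers and 6 of the preimplantation embryo, none reached it.

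No collagen probe set passed an adjusted p of 0.05 in any of the 7 comparisons made, and the median collagen gene was within 0.11 of 0 on the log2 scale in each, as deposited. Over all probe sets the share past that threshold was 0% for the folinic acid comparison in each genotype and for the interaction. It was 0.00444% (1 of 22519) for the genotype comparison under either injection and for both averaged comparisons. At an unadjusted p under 0.05 the collagen probe sets numbered 3, 3, 2 and 2 of 44 for folinic acid in wild type and then in mutants, and for genotype under saline and then under folinic acid. The same shares over all probe sets were 2.71%, 12.8%, 3.11% and 3.81%. For the interaction 3 of 44 had p under 0.05 (4.9% of all), for folinic acid averaged over genotypes 4 (9.21%), and for genotype averaged over injections 0 (2%).

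The median log2 difference of the 26 genes was -0.06 for wild type and -0.09 for mutants in the folinic acid comparisons, 0.01 for genotype under saline and 0.02 under folinic acid, beside 0.01, 0.01, -0.02 and -0.01 over all probe sets tested. It was 0.08 for the interaction, -0.11 for folinic acid averaged over genotypes and -0.01 for genotype averaged over injections. After quantile normalization, with 25 genes measured, these medians were -0.04, -0.00, -0.08, 0.02, 0.13, 0.01 and -0.03 in the same order. Genes above 0 went from 13 of 26 to 7 of 25 for genotype under saline and from 10 of 26 to 14 of 25 for folinic acid averaged over genotypes, so the sign of both medians differed with the scale. Within groups the SD of log2 signal had a median of 0.335 over the 26 genes and 0.292 over all probe sets. It was lowest for Col1a2 (0.0975) and highest for Col4a6 (0.737). In simulated data of this size the fit recovered 2% of 1.5-fold and 34% of 2-fold changes for folinic acid in mutants, and 28% and 77% for folinic acid averaged over genotypes. The simulated noise was independent between probe sets and arrays, with no shift shared between probe sets, so these rates may not hold for the real arrays. Smaller changes were not simulated.

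**Figure D1:**
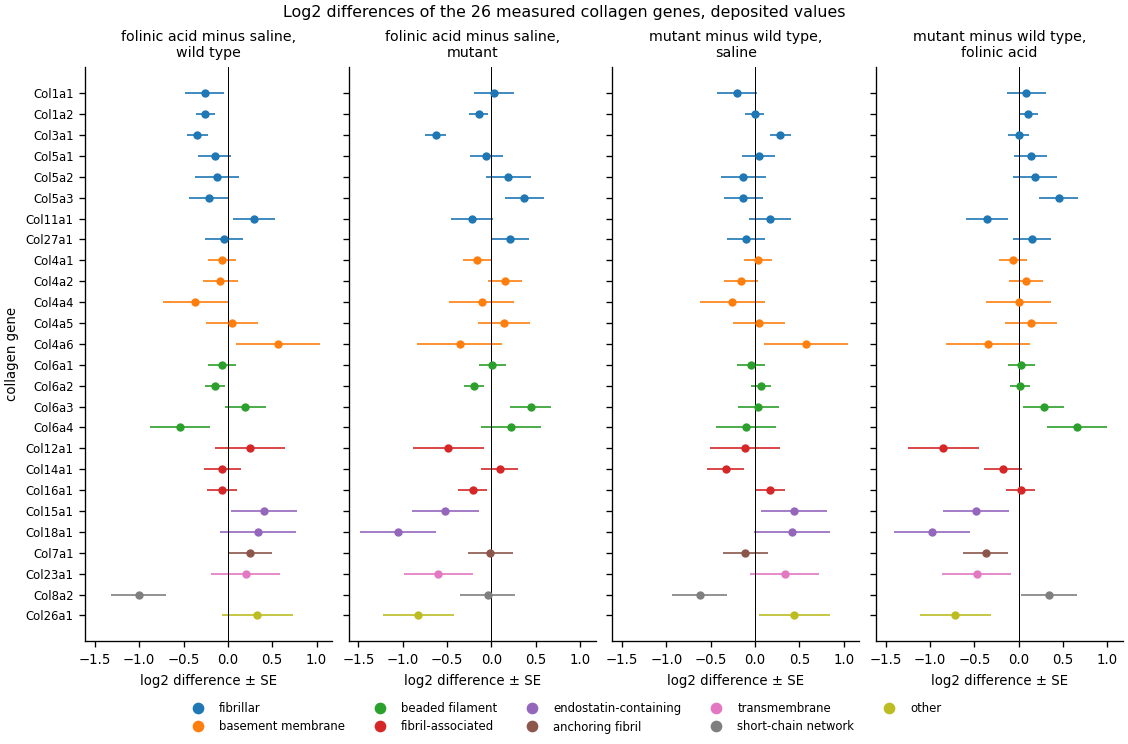
Log2 difference with its standard error (horizontal axis) for each of the 26 measured collagen genes (vertical axis), coloured by class, in 4 comparisons of deposited values. The points farthest from 0 in the folinic acid panels are Col8a2 after folinic acid in wild type (-1.01) and Col18a1 after folinic acid in mutants (-1.05).

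Col3a1, which encodes the only chain of type III collagen, was the fibrillar gene with the smallest p. Its signal was 45310, 44404, 45636 and 42003 in wild type with saline, and 34899, 30626 and 39863 in wild type with folinic acid. In mutants it was 48622, 60459 and 53746 with saline, and 32550, 37654, 35748 and 34161 with folinic acid. Every folinic acid array was below every saline array, in either genotype, and mutants with saline were above wild type with saline. Of all probe sets, 2.56% were lower with no overlap after folinic acid in wild type, 5.69% in mutants and 0.409% in both, and 5, 3 and 1 of the 44 collagen probe sets were. Higher with no overlap after folinic acid were 2.4% of all in wild type and 4.65% in mutants, and 0 collagens. Mutants were lower with no overlap under saline for 2.36% of all and 0 collagens, and under folinic acid 1.89% of all were higher, 3.05% lower and 0 collagens either. The group means were 44338 ± 1642 (SD, n = 4), 35129 ± 4623 (SD, n = 3), 54275 ± 5936 (SD, n = 3) and 35028 ± 2184 (SD, n = 4), in the order given. The log2 difference after folinic acid was -0.34 ± 0.12 (SE) in wild type (limma adjusted p = 0.999995) and -0.63 ± 0.12 in mutants (adjusted p = 0.120, unadjusted 7.96e-05, place 12 of all probe sets). Averaged over genotypes it was -0.49 ± 0.08 (adjusted p = 0.0999), place 5 of all. These did not pass the threshold. In the mutants the adjusted p was 0.0251 without mutant folinic acid replicate 2, and the averaged value had 0.0443 without that array and 0.0305 without wild-type folinic acid replicate 3. Over all settings run it ranged from 0.0251 to 0.997 in mutants and from 0.0194 to 0.952 for the average. Genotype differed by 0.29 ± 0.12 under saline, where 2.06% of all probe sets were higher with no overlap and Col3a1 was the 1 collagen of 44, and by 0.00 ± 0.12 under folinic acid. The interaction was -0.28 ± 0.17 (adjusted p = 0.905).

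The separation of Col3a1 depended on the scale. After quantile normalization, which gives all arrays the same distribution, its signal was 47906, 40117, 37258 and 44467 in wild type with saline, and 44172, 41437 and 37544 with folinic acid. It was 38717, 42551 and 42967 in mutants with saline, and 42313, 38717, 40624 and 43776 in mutants with folinic acid. All groups now overlapped. Col3a1 lay at percentile 99.8 of mean log2 signal among the probe sets tested. On this scale a signal takes its value from its rank on the array, so a shift shared by the brightest probe sets is taken out. A difference of 1 gene from probe sets of like brightness can remain. The origin of the Col3a1 shift was not tested. The log2 differences became -0.04 after folinic acid in wild type, -0.00 in mutants and -0.02 averaged, and genotype under saline became -0.03. The second Col3a1 probe set showed no shift on either scale. As deposited it was 4074, 3167, 2091 and 3603, then 3814, 3542 and 2273 in wild type, and 2508, 2637 and 4658, then 3373, 2229, 3930 and 3452 in mutants, with saline first. Its log2 differences after folinic acid were 0.00 ± 0.28 in wild type and 0.02 ± 0.28 in mutants. The 2 probe sets were unrelated across arrays as deposited (r = -0.16, rho = -0.13) and varied together after quantile normalization (r = 0.79, permutation p adjusted over 14 genes 0.00198).

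**Figure D2:**
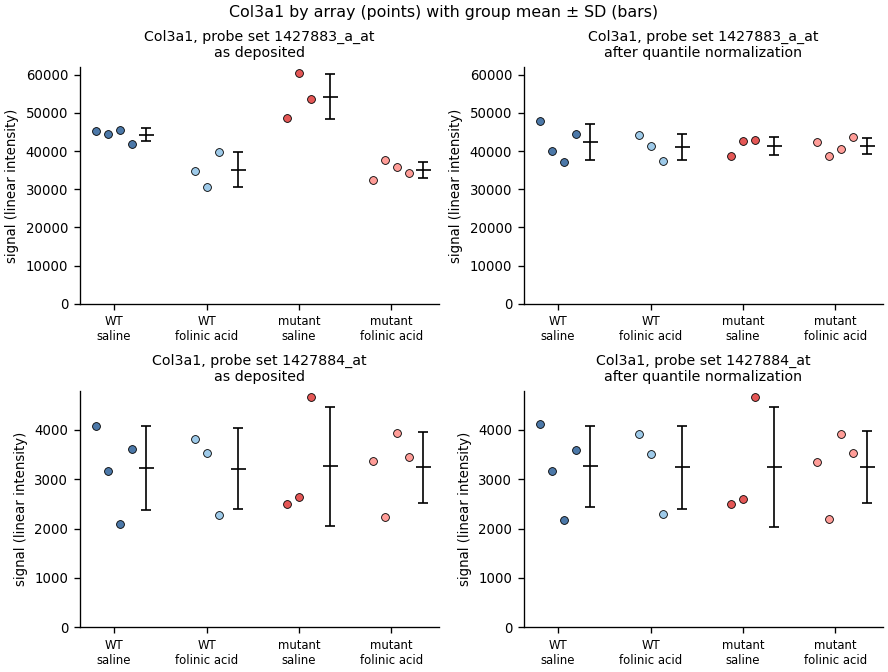
Signal (vertical axis, linear intensity) of both Col3a1 probe sets in each of the 14 arrays by group (horizontal axis), with the group mean and SD beside the points. In the upper left panel the folinic acid arrays, 30626 to 39863, lie below the saline arrays, 42003 to 60459, and in the other 3 panels the groups overlap.

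Brightness moved with the groups in the same way. Col3a1, Col1a2 and Col6a2 were the 3 collagens among the brightest 1% of tested probe sets, 225 in all. The median log2 difference of these 225 after folinic acid was -0.25 in wild type and -0.53 in mutants, with 34 and 182 of them lower with no overlap, and their median genotype difference under saline was 0.25. After quantile normalization the same medians were 0.00, -0.03 and 0.02. Medians near 0 for the brightest probe sets largely follow from that method. As deposited, Col3a1 was 0.09 below the median of the brightest probe sets in wild type and in mutants, and 42 and 62 of the 225 were lower still. In an added fit with the brightness of each array's top 1% as a covariate, chosen after the data were seen, the Col3a1 differences were -0.10 in wild type and -0.15 in mutants. That covariate is the median of probe sets that include Col3a1 and it moved with the groups, so it absorbs part of any group shift. Col1a2 and Col6a2 differed less than their bright neighbours in mutants, at -0.14 ± 0.11 and -0.20 ± 0.11, and 214 and 209 of the 225 were lower than they were. The highest signal on an array was 57054 to 95130 in the 7 saline arrays and 42725 to 67057 in the 7 folinic acid arrays.

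**Figure D3:**
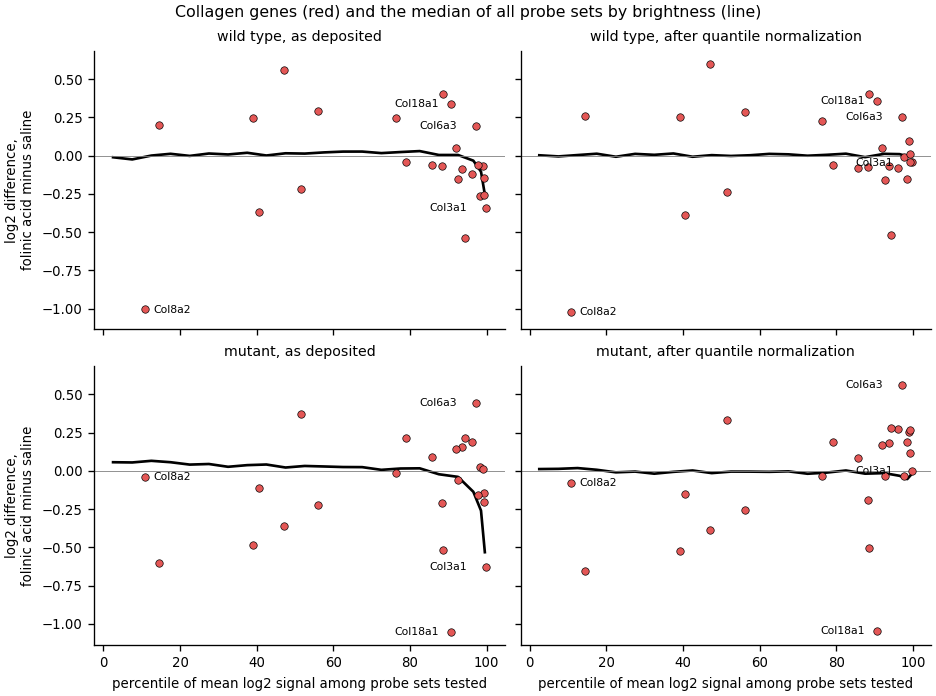
Log2 difference, folinic acid minus saline (vertical axis), against the percentile of mean log2 signal among probe sets tested (horizontal axis), for the collagen genes (red points) and as the median of all probe sets in brightness bins (black line). As deposited the line drops in the brightest bin to -0.25 in wild type and -0.53 in mutants, where Col3a1 lies, and after quantile normalization it stays near 0.

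The other fibrillar genes had larger p after folinic acid in both genotypes. Col1a2, the second chain of type I collagen, had signals of 26180, 26114, 30816 and 26591 in wild type with saline and 23106, 23776 and 21883 with folinic acid, which did not overlap. In mutants it had 25593, 26977 and 29437 with saline and 24363, 23461, 24018 and 27214 with folinic acid, which did. The difference in wild type was -0.26 ± 0.11 (unadjusted p = 0.0316, limma adjusted p = 0.999995), and -0.04 after quantile normalization. Averaged over genotypes it was -0.20 ± 0.08, which turned to 0.11 after quantile normalization. A fainter Col1a2 probe set kept separate groups in wild type on that scale, at 357, 306, 283 and 264 with saline. With folinic acid it was 233, 225 and 187 there, and 275, 255, 239 and 302 in mutants, which were higher with no overlap. In mutants its saline and folinic acid arrays overlapped. The remaining Col1a2 probe set overlapped between groups on that scale. The share of all probe sets with no overlap after quantile normalization is not given here, so these separations have no background beside them. Col1a1, the major chain of type I collagen, averaged 13828 ± 2972 (SD, n = 4) with saline and 11479 ± 2195 (SD, n = 3) with folinic acid in wild type, and 12062 ± 3148 (SD, n = 3) and 12275 ± 2780 (SD, n = 4) in mutants. Its log2 differences were -0.26 ± 0.22 and 0.03 ± 0.22. The type V chains, which regulate fibril diameter, gave -0.15 ± 0.19 in wild type and -0.06 ± 0.19 in mutants for Col5a1, -0.12 ± 0.25 and 0.19 ± 0.25 for Col5a2, and -0.22 ± 0.22 and 0.37 ± 0.22 for Col5a3. Col11a1 and Col27a1, better known from cartilage, ranged from 431 to 916 and from 1143 to 2003 over the arrays, with differences of 0.29 ± 0.24 and -0.04 ± 0.21 in wild type and -0.22 ± 0.24 and 0.21 ± 0.21 in mutants. Of the 8 measured fibrillar genes 7 were below 0 after folinic acid in wild type (median -0.18) and 4 in mutants (median -0.02). After quantile normalization the medians were -0.07 and 0.19, so the direction in mutants differed with the scale.

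No measured basement-membrane gene had separate groups in any of the 4 simple comparisons. Col4a1, which pairs with Col4a2 in the common type IV network, had 9485, 11578, 8256 and 10013 in wild type with saline and 9535, 9713 and 8840 with folinic acid. In mutants it had 12124, 8183 and 10043 with saline and 10349, 7502, 8503 and 9667 with folinic acid, so all groups overlapped. Its differences after folinic acid were -0.06 ± 0.16 and -0.16 ± 0.16 (95% interval -0.50 to 0.18 in mutants). Col4a2 gave -0.09 ± 0.19 and 0.15 ± 0.19, Col4a5 0.05 ± 0.29 and 0.14 ± 0.29, and Col4a4 -0.37 ± 0.37 and -0.11 ± 0.37. Col4a6, the partner of Col4a5 in muscle and some epithelial basement membranes, spread most, from 133 to 882. Its genotype difference under saline of 0.58 ± 0.47 rested on wild-type saline replicate 3 and was 0.03 without it.

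Types XV and XVIII, at basement membranes of vessels, muscle and epithelium, included the lowest value after folinic acid in mutants. Col18a1 was 4459, 4757, 1124 and 4277 in saline arrays and 6036, 3330 and 3231 in folinic acid arrays of wild type, and 4118, 3499 and 5344 in mutants with saline. Folinic acid arrays of mutants had 1681, 1706, 3445 and 1785. Replicate 3 was just below the lowest mutant saline array, and the other 3 were far below it. The second probe set had 2238, 1999 and 2660 in mutants with saline and 1084, 1583, 1537 and 1018 with folinic acid. Its folinic acid arrays were also below the saline arrays, but replicate 3 did not stand apart in it. The difference after folinic acid in mutants was -1.05 ± 0.43 for the first (unadjusted p = 0.0264, limma adjusted p = 0.324) and -0.84 ± 0.31 for the second (adjusted p = 0.291), and neither passed. In wild type the differences were 0.34 ± 0.43 and -0.05 ± 0.31. Between genotypes under folinic acid the first probe set differed by -0.97 ± 0.43 (unadjusted p = 0.0383, limma adjusted p = 0.9994), with overlap. The interaction was -1.39 ± 0.61 (unadjusted p = 0.0361, adjusted p = 0.905) and -0.78 ± 0.44, and the first became -0.89 without wild-type saline replicate 3. Quantile normalization left the value in mutants at -1.05, though replicate 3 then overlapped the saline arrays for the first probe set. Col15a1 was 3331, 3089, 912 and 3355 in wild type with saline and 3842, 3127 and 2561 with folinic acid. In mutants it was 4220, 3364 and 2341 with saline and 2294, 2249, 2812 and 1750 with folinic acid. The groups overlapped, with differences of 0.40 ± 0.37 and -0.52 ± 0.37. Its genotype difference under saline turned from 0.44 to -0.02 without wild-type saline replicate 3.

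Type VI collagen was split. Col6a2 had 24264, 21892, 20208 and 23341, then 19524, 19192 and 22000 in wild type with saline and folinic acid, and 20979, 26147 and 23661, then 20427, 19783, 21264 and 20351 in mutants. Its groups overlapped, and the differences after folinic acid, -0.15 ± 0.11 and -0.20 ± 0.11, turned to 0.01 and 0.12 after quantile normalization. Col6a1 gave -0.06 ± 0.15 and 0.01 ± 0.15. Col6a3, the longest type VI chain, was 9652, 6091, 4899 and 9582, then 8250, 10382 and 6675 in wild type, and 6911, 8424 and 7046, then 11312, 8073, 11946 and 9558 in mutants. The mutant difference was 0.44 ± 0.23 (adjusted p = 0.448), with the ranges overlapping between 8073 and 8424. After quantile normalization it was 0.56 with no overlap (adjusted p = 0.410), and with the brightness covariate it was -0.53. For this separation too the share over all probe sets on that scale is not given. Col6a4 was 4220, 6518, 5257 and 4600 in wild type with saline and 4202, 3346 and 3036 with folinic acid, which did not overlap (-0.54 ± 0.34, adjusted p = 0.999995). In mutants it was 5397, 3777 and 5249 with saline and 3480, 5521, 3788 and 12749 with folinic acid, the last array lying far above all others.

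Among the smaller classes, Col8a2, a short-chain collagen of endothelial and corneal basement membranes, had the smallest p after folinic acid in wild type. Its signal was 251, 212, 430 and 232 with saline and 129.5, 182 and 103 with folinic acid. The ranges did not overlap, and the difference was -1.01 ± 0.31 (unadjusted p = 0.00555, limma adjusted p = 0.999995), or -0.78 without wild-type saline replicate 3. In mutants it was 186, 118 and 245 with saline and 141, 184, 147 and 220.4 with folinic acid, a difference of -0.04 ± 0.31, and the interaction was 0.97 ± 0.44 (adjusted p = 0.905). Quantile normalization gave -1.02 and -0.08. These signals are close to the level tested, which limits their precision.

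The fibril-associated Col12a1, Col14a1 and Col16a1, which decorate fibril surfaces, gave 0.25 ± 0.40, -0.06 ± 0.21 and -0.07 ± 0.17 after folinic acid in wild type and -0.48 ± 0.40, 0.09 ± 0.21 and -0.21 ± 0.17 in mutants. Col16a1 was 2793, 2810, 2236 and 2564, then 2712, 2856 and 1954 in wild type, and 3269, 3016 and 2501, then 2187, 2890, 2773 and 2269 in mutants, with overlap throughout. Between genotypes Col12a1 differed by -0.85 ± 0.40 under folinic acid (unadjusted p = 0.049, adjusted p = 0.9994), with 145 to 594 in mutants and 489.9 to 626 in wild type. Col7a1, the anchoring-fibril collagen under epithelium, was 1573, 1333, 1287 and 1159, then 1507, 1363 and 1917 in wild type, and 1320, 1142 and 1242, then 845, 942, 2141 and 1301 in mutants. Its differences were 0.25 ± 0.25 and -0.01 ± 0.25. The transmembrane Col23a1 had 257, 251, 86.4 and 296, then 373, 217 and 155 in wild type, and 290.2, 226 and 249.5, then 154, 143, 239 and 148 in mutants, a mutant difference of -0.60 ± 0.39. Col26a1 had 175, 165, 59.7 and 166, then 241, 173 and 105 in wild type, and 141, 170.1 and 231, then 73.3, 95.2, 149 and 94.8 in mutants, a mutant difference of -0.83 ± 0.40 (adjusted p = 0.403). It was under the level tested after quantile normalization. In both genes the ranges overlapped in every comparison.

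**Figure D4:**
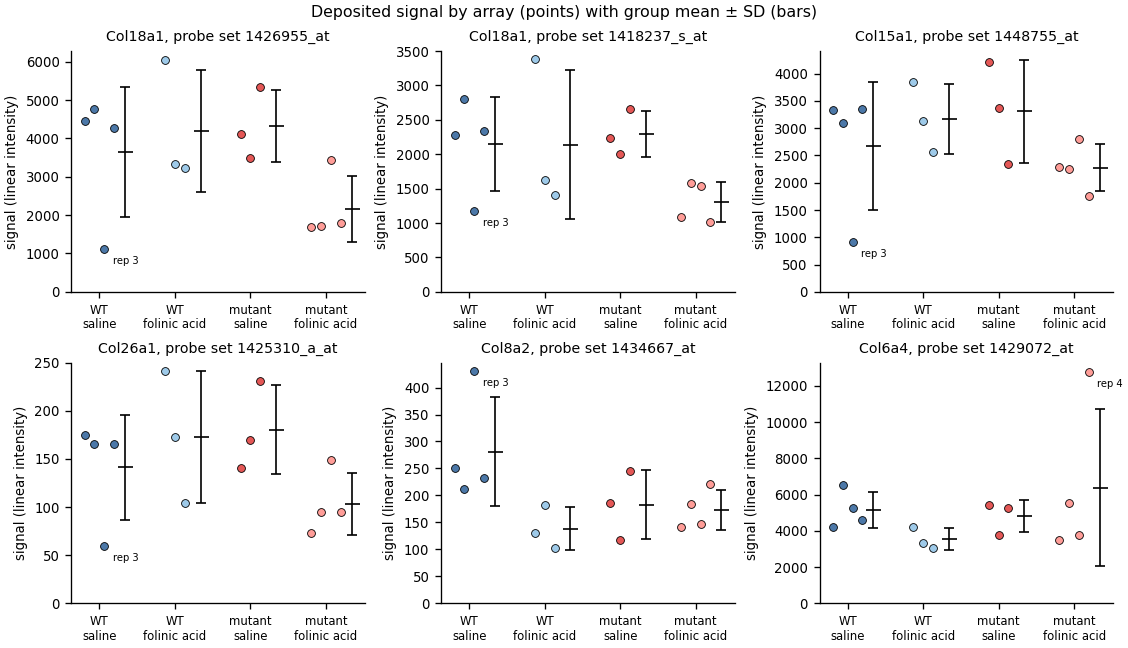
Deposited signal (vertical axis, linear intensity) of 6 collagen probe sets in each array by group (horizontal axis), with the group mean and SD beside the points. Wild-type saline replicate 3 is far below its group for both Col18a1 probe sets, Col15a1 and Col26a1 and above it for Col8a2, and mutant folinic acid replicate 4 is far above its group for Col6a4.

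Single arrays set several of these values. Wild-type saline replicate 3, the array with the highest 3-prime to 5-prime ratios, held the lowest signal of 12 of the 44 collagen probe sets, 27.3%, where it held the lowest of 14.3% of all probe sets. They were all 3 probe sets of Col23a1, 2 of the 3 of Col5a1, the second ones of Col3a1 and Col6a2, and the brightest or sole ones of Col4a6, Col6a3, Col15a1, Col18a1 and Col26a1. It held the highest signal of 5 probe sets, for Col1a1, Col1a2, Col4a4, Col8a2 and Col27a1 (11.4%, and 14.4% of all). Wild-type folinic acid replicate 3 held the lowest of 9 collagen probe sets, 20.5% against 6.82% of all, and mutant folinic acid replicate 2 of 8, 18.2% against 10.7%. Wild-type folinic acid replicate 1 held the highest of 9, 20.5% against 6.43% of all. Among the alternatives was a fit with the actin ratio of each array as a covariate. The part of RNA quality in these lowest and highest signals was not tested.

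Chains that assemble into the same molecule were compared across the 14 arrays for the 7 of 13 listed pairs in which both were measured, with permutation p adjusted over the 7. Pairs with the clearest relation were Col5a1 and Col5a2 (Pearson r = 0.70, adjusted p = 0.0188, Spearman rho = 0.69, adjusted p = 0.0296) and Col4a5 and Col4a6 (r = 0.72, adjusted p = 0.0188, rho = 0.69, adjusted p = 0.0296), whose start regions are printed above. The unadjusted p of r was 0.00538 and 0.00299. After subtraction of the group means r was 0.74 and 0.79. Without the 2 arrays farthest from the median, r for Col5a1 and Col5a2 was 0.68. For Col4a5 and Col4a6 it was 0.43 without mutant folinic acid replicate 2 and wild-type saline replicate 3, so that relation rests largely on those arrays. Without wild-type folinic acid replicate 3 the adjusted p of Col5a1 and Col5a2 was 0.0607. Col1a1 and Col1a2 (r = 0.39, adjusted p = 0.228), Col4a1 and Col4a2 (0.37, 0.229), Col6a1 and Col6a2 (0.44, 0.204), Col6a1 and Col6a3 (0.54, 0.113) and Col6a2 and Col6a3 (-0.02, 0.944) did not pass. After quantile normalization these 5 pairs had r of 0.74, 0.57, 0.87, 0.76 and 0.77, all with an adjusted p between 0.00056 and 0.0335. These 5 pairs thus varied together more closely on that scale, on which Col3a1 also lost its separation. As deposited their Spearman rho was 0.44, 0.46, 0.51, 0.61 and -0.02, with adjusted p of 0.0515 to 0.964.

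Different probe sets of 1 gene were compared for the 14 genes with more than 1 above the level tested, a family chosen after the data were seen. The best match was seen for Col4a5 (r = 0.90), Col18a1 (0.88), Col4a4 (0.84) and Col14a1 (0.83), with permutation p adjusted over the 14 of at most 0.000875, and Spearman rho was 0.96, 0.93, 0.64 and 0.82 (adjusted p of at most 0.0344). The probe sets of Col1a1 ran against each other (r = -0.54, permutation p = 0.0503, adjusted p = 0.0704, rho = -0.56, adjusted p = 0.0626, and r = -0.81 after subtraction of group means). Its second probe set was 1493, 1329.7, 2604 and 1298, then 902, 952 and 1477 in wild type, and 1728, 2181 and 1142, then 883, 1962, 1374 and 1119 in mutants. In wild-type saline replicate 3 and in mutant folinic acid replicate 2 it was the highest of its group, where the first probe set was the lowest of its group (10658 and 9263). All probe sets of a gene had the same sign for 8 of 14 genes after folinic acid in wild type, 6 in mutants, 6 for genotype under saline and 10 under folinic acid.

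**Figure D5:**
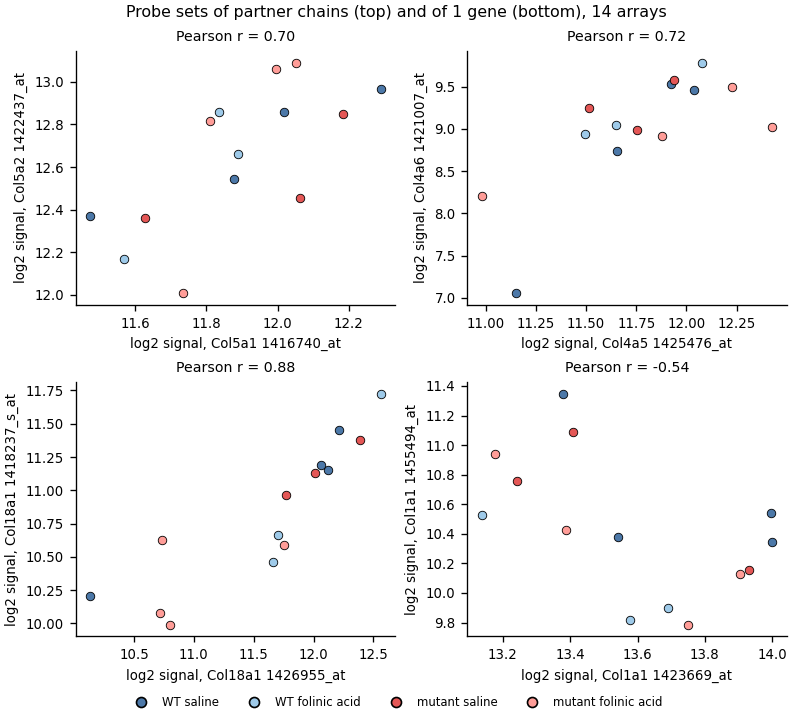
Log2 signal of 1 probe set (horizontal axis) against another (vertical axis) across the 14 arrays, coloured by group: partner chains Col5a1 and Col5a2 (r = 0.70) and Col4a5 and Col4a6 (r = 0.72) above, and 2 probe sets each of Col18a1 (r = 0.88) and Col1a1 (r = -0.54) below. The Col1a1 probe sets run in opposite directions.

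Genes that make, bind or break down collagen were read from 7 lists, of which no member passed the threshold for folinic acid in either genotype. Of 19 measured genes for folding and modification, 11 were above 0 in wild type (median 0.02) and 9 in mutants (median -0.08). Serpinh1, which encodes the collagen chaperone Hsp47, had -0.13 ± 0.22 in wild type and -0.73 ± 0.22 in mutants (limma adjusted p = 0.209), with no overlap in mutants, and -0.60 there after quantile normalization. Ppib, the peptidyl-prolyl isomerase of procollagen folding, and P3h3, of the prolyl 3-hydroxylase family, had -0.38 ± 0.15 and -0.52 ± 0.23 in mutants (adjusted p = 0.320 and 0.375). Of 7 genes for cleavage and crosslinking, 3 and 4 were above 0 (medians -0.01 and 0.03), and Lox, a crosslinking lysyl oxidase, had -0.27 ± 0.45 and 1.02 ± 0.45 (adjusted p = 0.355 in mutants).

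Of 15 fibril-binding proteoglycans and glycoproteins, 5 were above 0 in wild type (median -0.16) and 8 in mutants (median 0.09). Aspn, the small proteoglycan asporin, had 1.17 ± 0.43 in mutants (adjusted p = 0.285) and fibromodulin, Fmod, -0.66 ± 0.26 (adjusted p = 0.319). Of 14 basement-membrane partners, 6 and 3 were above 0 (medians -0.05 and -0.16), with the laminin chain gene Lama3 at -0.91 ± 0.33 in mutants (adjusted p = 0.280) and no overlap. Of 7 collagen receptors, 1 and 3 were above 0 (medians -0.19 and -0.09), and Ddr2, a receptor kinase for fibrillar collagen, had -0.21 ± 0.13 and -0.30 ± 0.13 (adjusted p = 0.348 in mutants). Of 9 degradation genes, 2 and 6 were above 0 (medians -0.11 and 0.10), with the collagen-degrading protease gene Ctsk at -0.39 ± 0.27 and 0.61 ± 0.27 (adjusted p = 0.368 in mutants). Of 12 genes of TGF-beta input, 5 and 10 were above 0 (medians -0.08 and 0.14), and Skil, a feedback repressor of that pathway, had 0.42 ± 0.14 in mutants (adjusted p = 0.260).

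Markers of the cells that make collagen are set beside these values. Of 11 stromal and fibroblast markers, 3 were above 0 after folinic acid in wild type (median -0.30) and 1 in mutants (median -0.31), with none past the threshold. After quantile normalization 3 and 4 were (medians -0.24 and -0.32). Their summed signal was 105955 to 118609 in wild type with saline, 77352 to 93978 in wild type with folinic acid, 100042 to 124592 in mutants with saline and 84194 to 104576 in mutants with folinic acid. Vim, the intermediate filament gene of stromal cells, had -0.45 ± 0.14 and -0.49 ± 0.14 (adjusted p = 0.179 in mutants), and -0.39 and -0.35 after quantile normalization. Of 11 smooth muscle markers, 3 and 6 were above 0 (medians -0.07 and 0.07), and after quantile normalization 6 and 10 (medians 0.03 and 0.21). Their sums overlapped between all groups, from 101707 to 187434 over all arrays. Of 10 endothelial markers 5 and 2 were above 0 (medians 0.01 and -0.19), of 10 epithelial markers 6 and 3 (medians 0.08 and -0.16), and of 5 mesothelial markers 0 and 1 (medians -0.46 and -0.45). Of 9 macrophage markers 1 and 8 were above 0 (medians -0.15 and 0.64), and of 3 adipocyte markers 3 and 1 (medians 1.10 and -0.20). Single arrays stood out in both lists. The median deviation of the macrophage markers from their means over all arrays was 1.80 in mutant folinic acid replicate 1 and -0.50 to 0.27 in the other 3 of its group, with summed signals of 65978 and 12751 to 21590. For the adipocyte markers it was -3.88 in wild-type saline replicate 2 and -0.04 to 1.40 in the other 3 of its group. Both list medians include these arrays. The 1 measured marker of Schwann cells and nerve, of 4 matched, had -0.23 and 0.69. In whole tissue, fewer cells of a type and less RNA per cell cannot be told apart, and the part of cell makeup in the collagen values was not tested.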

How the data were processed

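Each of the 14 uterus samples was hybridised to its own Affymetrix array as biotin-labelled target. The authors deposited linear intensity values for every probe set, and the submitters' processing notes name MAS5. On every array the mean after trimming 2% at each end was 500.002 or 500.003, so each had been scaled by 1 factor. The genome build and the detection calls are not given in the sources used here.

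The deposited intensities were raised to at least 1 (0.505% of values), put on the log2 scale and kept at or above the median mean log2 signal. Group means were fitted with limma 3.58.1 in R 4.3.3 with a variance trend (10 residual and 5.04 prior degrees of freedom). Tests were two-sided, adjusted by Benjamini-Hochberg over 22519 probe sets in each comparison, at a threshold of 0.05. Errors of log2 differences are standard errors. The number of arrays limits the precision. Correlations across arrays used 100000 permutations, with 1e-05 the smallest p they can give. The fit was tested on simulated data.

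The members, the 17 lists (189 entries, 175 matched to a probe set, 143 above the level tested) and the tests were chosen with earlier results of these data known. Values are given for collagen genes among the 5 with the smallest p in a comparison, for the gene of highest signal in each class, and for up to 4 list members by p. Not every difference of these genes is printed for every comparison. Alternatives were quantile normalization, an offset, other filters, 1 probe set per gene, other variance settings, array weights, covariates, a replicate block, arrays sharing a title number counted as 1, and leaving out each array. The brightness covariate and the within-gene pairs were chosen after the data were seen.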

Additional observations from a re-analysis of the deposited data

Results flagged for a closer look

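In the groups of 4 arrays, 1 array lay far from the other 3 in 9 of 54 groups of values checked, where chance gives 2.7. Wild-type saline replicate 3 was the array in 5 of these. It had the lowest signal of its group for Col15a1 (912, the next 3089), Col18a1 (1124, the next 4277), Col23a1 (86.4, the next 251) and Col26a1 (59.7, the next 165), and the highest for Col1a2 (30816, the next 26591). Among mutants with folinic acid, replicate 3 was the highest for Col18a1 (3445, the next 1785) and Col23a1 (239, the next 154). Replicate 2 was the lowest for Col6a1 (13939, the next 18978) and for the median deviation of the 26 collagen genes from their means over all arrays (-0.23 on the log2 scale, the next -0.01).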

How the results depend on the processing

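The count of collagen probe sets past the threshold was 0 in each comparison and became 1 (Col3a1) with array weights for folinic acid in mutants (adjusted p = 0.049967) and averaged over genotypes (0.0194). Leaving out arrays gave counts of 0 to 1 in both. The median log2 difference of the collagen genes kept within the spread between arrays in all settings but 2. With the brightness covariate it was -0.30 for folinic acid in wild type, -0.54 in mutants, 0.23 for genotype under saline, -0.21 for the interaction and -0.46 for folinic acid averaged over genotypes. With no filter on low values it was -0.14 for the interaction. Quantile normalization turned the sign of Col6a2 after folinic acid (0.0123 in wild type, 0.12 in mutants, 0.0661 averaged), of Col1a2 averaged (0.11) and of Col3a1 between genotypes (-0.0302 under saline, -0.00889 averaged). The brightness covariate turned Col6a3 (-0.53 in mutants, -0.41 averaged), and leaving out wild-type saline replicate 3 turned Col15a1 between genotypes under saline, where leaving out arrays gave -0.0182 to 0.67. Causes were not tested.

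Quantile normalization brought the correlation of Col1a1 with Col1a2 to 0.74, Col4a1 with Col4a2 to 0.57, Col6a1 with Col6a2 to 0.87 and with Col6a3 to 0.76, Col6a2 with Col6a3 to 0.77 and the 2 Col3a1 probe sets to 0.79. Leaving out arrays gave 0.64 to 0.77 for Col5a1 with Col5a2, 0.30 to 0.73 for Col4a1 with Col4a2, 0.46 to 0.65 for Col6a1 with Col6a3, -0.18 to 0.0845 for Col6a2 with Col6a3, -0.10 to 0.33 for the Col27a1 and -0.0842 to 0.50 for the Col4a1 probe sets.

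Replicate numbers do not pair the samples: deviations of arrays with the same number correlated at 0.02 on average over 19 pairs (-0.34 to 0.35). With the replicate number as a block, 0 collagen probe sets passed in any comparison, and Col3a1 was at -0.61 in mutants (adjusted p = 0.250) and -0.49 averaged (0.152). Low signals near the level tested, as for Col8a2, Col23a1 and Col26a1, limit what these arrays can show.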
